A study of Mus musculus with 12 samples.

Results

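The nuclear-encoded subunits of oxidative phosphorylation were followed in mouse embryonic stem cells of 2 genotypes, before and after retinoic acid (RA). Members were taken by gene symbol: protein-coding genes whose symbols name a subunit of complex I (Nduf followed by a, b, c, s or v and a number), complex II (Sdha to Sdhd), complex III (Uqcr genes and Cyc1), complex IV (Cox4 to Cox8 genes) or complex V (Atp5 genes), without the Ndufaf assembly factors. That rule gave 86 of the 55416 genes counted, of which 35 belong to complex I, 4 to complex II, 9 to complex III, 20 to complex IV and 18 to complex V. Ndufa4 and its relative Ndufa4l2 were placed with complex IV, where the Ndufa4 protein is now counted. Another 12 genes with matching symbols are not protein-coding, 11 of them processed pseudogenes such as Uqcrh-ps1, Atp5l-ps1 and Ndufs6b, and were left out.

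The respiratory chain passes electrons from NADH, through complex I, and from succinate, through complex II, to ubiquinone, and from there through complex III, cytochrome c and complex IV to oxygen. Complexes I, III and IV pump protons across the inner mitochondrial membrane, and complex V, the ATP synthase, uses the gradient to make ATP. A few subunits are encoded by mitochondrial DNA, and the others, studied here, by nuclear genes. Naive pluripotent stem cells use both glycolysis and respiration, and the balance is known to shift as they leave the naive state.

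The 12 libraries combine a line and a culture state, with 3 libraries in each of 4 groups. The C48S RA and WT RA groups had been kept for 2 days in medium with 1.5 mg/L RA and without LIF, a self-renewal cytokine. The C48S undifferentiated and WT undifferentiated groups had been grown with the MEK inhibitor PD03259010 at 1 µM, the GSK3 inhibitor CHIR99021 at 3 µM and ascorbic acid. C48S is a line derived from the parental Bl/6J cells in which the pluripotency factor Oct4 carries a serine in place of a cysteine, and WT is the parental line. All C48S libraries come from 1 clone, number 46, so that the mutation and any other property of the clone cannot be told apart. Whether the inhibitors and ascorbic acid were kept during RA is not given, so RA and the change of medium cannot be told apart either. The treatment field gives the RA libraries days from 2 to 7, whereas titles and protocol give day 2, which was used. Total RNA was depleted of ribosomal RNA before sequencing.

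Library totals lay between 8678088 and 13597098 counts. Levels are given as CPM, the counts relative to library size after scaling, and changes as log2 fold changes ± SE, fitted by edgeR with 3 libraries a group. The SE was derived from the log2 fold change and the F statistic of its test. The estimate of spread in that test draws on all 12 libraries. A gene was called when its Benjamini-Hochberg adjusted p over the 17940 genes tested was under 0.05. Nothing states that a group's libraries came from separate cultures, and the p-values therefore reflect library spread alone, possibly technical. One library was unlike its group: for C48S undifferentiated replicate 3 the chi-square over genes, divided by its degrees of freedom, was 8.87 and 8.68 against replicates 1 and 2, and at most 2.15 for any other pair of a group. The 10 pluripotent cell markers summed to 1153 to 1198 CPM in C48S RA, 634 to 659 CPM in WT RA, 6429 to 6618 CPM in C48S undifferentiated and 6659 to 6803 CPM in WT undifferentiated libraries. None was at 0 counts, and all 10 fell with RA in each line. The 12 fibroblast and feeder cell markers, none at 0 counts, summed to 507 to 515, 380.3 to 388, 565 to 741 and 415 to 456 CPM in the same order of groups, and their part in the results below was not tested. In such bulk samples, fewer cells of a type and less RNA per cell cannot be told apart.

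With libraries scaled by the trimmed mean of M-values (TMM), transcripts of the 86 subunits summed lower after RA in both lines. They summed to 6455, 6514 and 6243 CPM in C48S RA and 6605, 6679.5 and 6535 CPM in WT RA libraries, against 8756, 8666 and 10069 CPM in C48S undifferentiated and 9622, 9577 and 9239.6 CPM in WT undifferentiated libraries. RA and undifferentiated libraries did not overlap in either line. Within the C48S undifferentiated group replicate 3 was the highest, and it alone lay above the WT undifferentiated libraries. No test was run on these sums, and they are not shares of the RNA. The scaling factors lay between 0.8773 and 0.8891 in WT undifferentiated and between 1.1151 and 1.1230 in WT RA libraries. In C48S they lay between 0.9210 and 0.9321 before RA and between 1.0856 and 1.1031 after it. Relative to total counts the falls with RA are therefore smaller, and sums by complex were not computed on that scale.

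ATP synthase transcripts took the largest part. Complex V summed to 2639 ± 69.2 CPM in C48S RA, 2784 ± 38.2 in WT RA, 4009.9 ± 277 in C48S undifferentiated and 4543 ± 115 in WT undifferentiated libraries (SD, n = 3 each). Complex I came next among nuclear subunits, with 1465 ± 34.6, 1511 ± 6.45, 2018 ± 218 and 1943 ± 42.3 CPM in that order of groups. Complex IV stood out in the line comparison: at 1310.0 ± 16 CPM in C48S RA against 1211 ± 20.5 in WT RA, and 1664 ± 157 in C48S undifferentiated against 1407 ± 38 in WT undifferentiated libraries, its sum was the one complex sum whose mean was higher in C48S in both states. Cox4i1 on chromosome 8 and Ndufa4 on chromosome 6 carried most of that excess after RA, with 372 ± 10.3 CPM together in C48S RA against 276 ± 9.94 in WT RA, and 413 ± 68.2 in C48S undifferentiated against 262 ± 11.6 in WT undifferentiated libraries. The other 18 genes of the complex summed to 938 ± 5.78 CPM in C48S RA against 935 ± 23 in WT RA, with overlap, and to 1251 ± 89 in C48S undifferentiated against 1146 ± 30.3 in WT undifferentiated libraries. The 13 mitochondrially encoded subunits summed to 9789 ± 213, 12139 ± 447, 11794 ± 2285 and 15648 ± 348 CPM, so their mean was lower in C48S than in WT in both states.

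**Figure D1:**
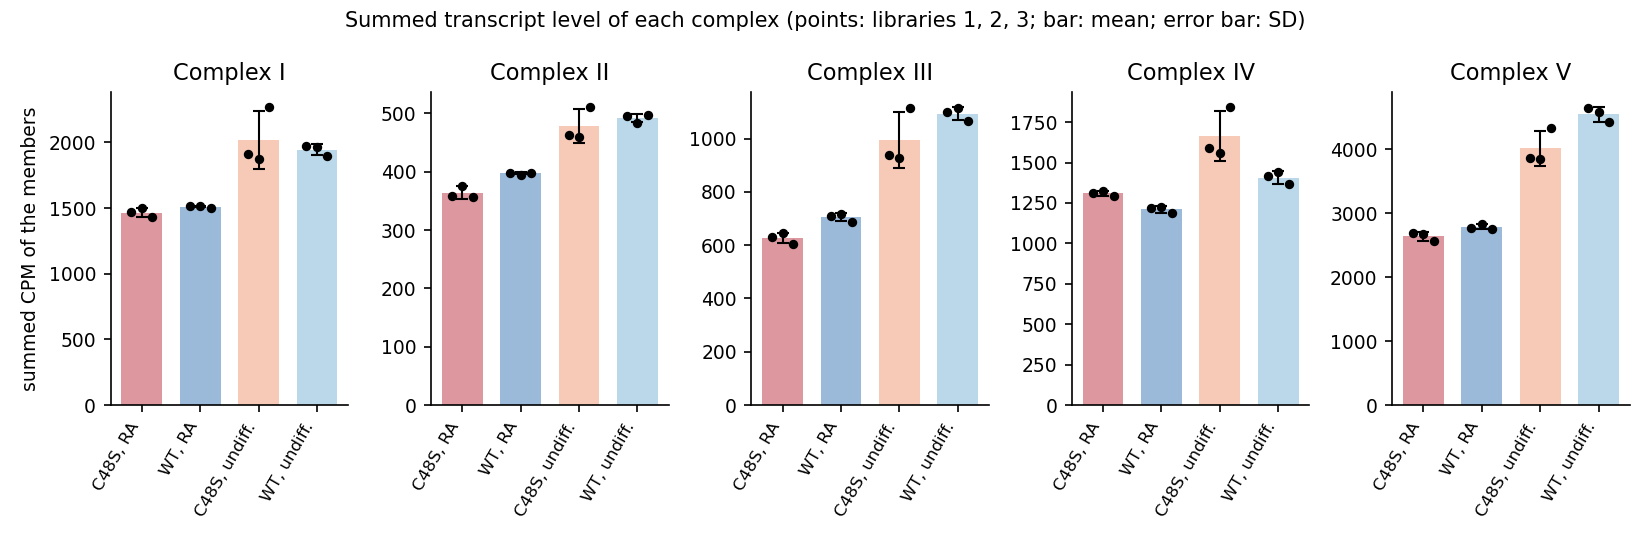
Summed CPM of the nuclear-encoded subunits of each complex, with each library as a point, the group mean as a bar from 0 and the SD as an error bar, in the order C48S RA, WT RA, C48S undifferentiated and WT undifferentiated. On the TMM scale, complex V averages 2639 and 2784 CPM in the RA groups, against 4009.9 and 4543 CPM in the undifferentiated groups. Complex IV is higher on average in C48S than in WT in both states.

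Per kilobase of exon model, the measure used here to compare genes, the members spanned more than 100-fold. The model takes all annotated exons of a gene together, so values of genes with long models may be too low. Averaged over the 12 libraries, Atp5b, the catalytic beta subunit of ATP synthase, was the highest at 328 CPM per kilobase. Atp5a1, the alpha subunit that forms the hexameric head with it, followed at 247, and then Cox8a at 229, Cox6b1 at 174, Cox4i1 at 153 and Uqcr10 at 144 CPM per kilobase. At the other end of the 81 members tested stood Cox4i2 at 2.46, Ndufb2 at 3.07 and Atp5s at 3.52 CPM per kilobase. The place of Ndufb2 rests on a model of 5628 bases: its group means were 19.2 CPM in C48S RA, 14.5 in WT RA, 21.4 in C48S undifferentiated and 13.9 in WT undifferentiated libraries. By this measure small subunits of complexes III and IV were thus among the most abundant transcripts alongside the ATP synthase head.

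Of the 86 members, 5 had too few counts to be tested. These were the tissue-restricted complex IV genes Cox6a2, Cox7b2, Cox8b and Cox8c and a second gene identifier for Atp5o, which had no count in any library, a limit of 0.106 CPM in WT RA and less in the other groups (3 counts over the group, counting error only). Cox8c, a testis isoform, had 30 counts over the 3 C48S RA libraries, 26 over WT RA, 7 over C48S undifferentiated and 12 over WT undifferentiated libraries. Cox7b2 had 9, 18, 1 and 26 counts in the same order of groups. Cox6a2, the heart and muscle partner of Cox6a1, had 3 and 12 counts in the RA groups and none in the undifferentiated groups, and Cox8b had 2 counts, in C48S RA alone. Such counts are too few to compare groups.

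With RA, most subunits fell in both lines. In C48S, 64 of the 81 members tested were lower after RA and 5 higher, against 34.6% of all genes tested lower, 39.0% higher and 73.6% called in either direction. In WT, 52 were lower and 9 higher, against 37.4%, 40.9% and 78.3% of all genes. The members' median log2 change was -0.49 in C48S and -0.36 in WT, where the median of all genes tested was 0.05 and 0.06. The lower calls of the lines shared 49 members, which is 76.6% of those in C48S and 94.2% of those in WT. Over all genes tested, the lower calls shared by the lines were 81.6% of those in C48S and 75.6% of those in WT. Changes were mostly small: past a fold of 1.5, 16 members were lower and 3 higher in C48S (14.0% and 25.2% of all genes, 39.2% in all), and 20 lower and 3 higher in WT (21.4% and 29.1%, 50.5% in all). Neither line called Ndufa1, Ndufa2, Ndufa3, Ndufa12, Ndufb2 or Ndufb7 of complex I, Cox4i1 or Atp5f1. Without C48S undifferentiated replicate 3, a library described below, WT called Ndufb7 lower at -0.30, Atp5f1 lower at -0.09 and Cox4i1 higher at 0.14.

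How far the members fell depends on the scale. With libraries scaled to their total count in place of the trimmed mean of M-values (TMM), the median of all genes itself moved to 0.28 in C48S and 0.40 in WT, and the members' median became -0.25 and -0.02, with 46 lower and 8 higher in C48S and 28 lower and 18 higher in WT. Relative to all genes the members' median was 0.54 lower in C48S by the first scale and 0.53 lower by the second, and 0.41 lower in WT by both. The scale bears on single genes too, which were checked only for the members given in every library by rule. Among these, the sign changed for Sdha and Ndufa4 in both lines, Sdhc and the uncalled Cox4i1 in C48S and Cox7b in WT, among others. These are given beside each below. The other members were not checked singly, and small falls given for them below, above all in WT, may also depend on the scale.

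Other abundant genes with short exon models also fell with RA. Among 9946 protein-coding genes at 10 CPM or more, the median change was -0.17 in C48S and -0.21 in WT, and among the 477 of these with under 1500 bases of exon it was -0.52 in C48S and -0.51 in WT, with 70.6% and 65.2% of them lower. The members' exon models ran from 419 to 8086 bases with a median of 1587. Split at 1500 and 4000 bases, the members' medians in C48S were -0.44, -0.55 and -0.61 from short to long, against -0.52, -0.26 and -0.08 for the protein-coding genes of those lengths. In WT they were -0.27, -0.43 and -0.44, against -0.51, -0.34 and -0.11. The members thus lay further below genes of like exon length where that length was large, and not where it was small. This length takes all annotated exons of a gene together and can exceed that of its transcripts. Atp5l, at 6443 bases, and Atp5g1, at 4912, were among the longest by it. The split therefore does not tell how members with long and short transcripts compare. Cytosolic ribosomal protein genes fell in 77 of 80 cases in C48S (median -0.66) and 76 of 80 in WT (-0.59). The part of transcript length in the members' change was not tested.

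The same pattern of lengths marked C48S undifferentiated replicate 3. It was the highest of its 3 libraries for 65 of the 81 members (80.2%), against 41.2% of protein-coding genes at 10 CPM or more, by a median of 0.22 on the log2 scale over the other libraries. Genes under 1500 bases lay 0.25 above and genes over 4000 bases 0.05 below in it. Without that library 63 members were lower and 5 higher with RA in C48S, at a median of -0.41, and the call of Ndufa8 was lost. In WT, which shares its estimate of spread, 59 were then lower and 10 higher.

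**Figure D2:**
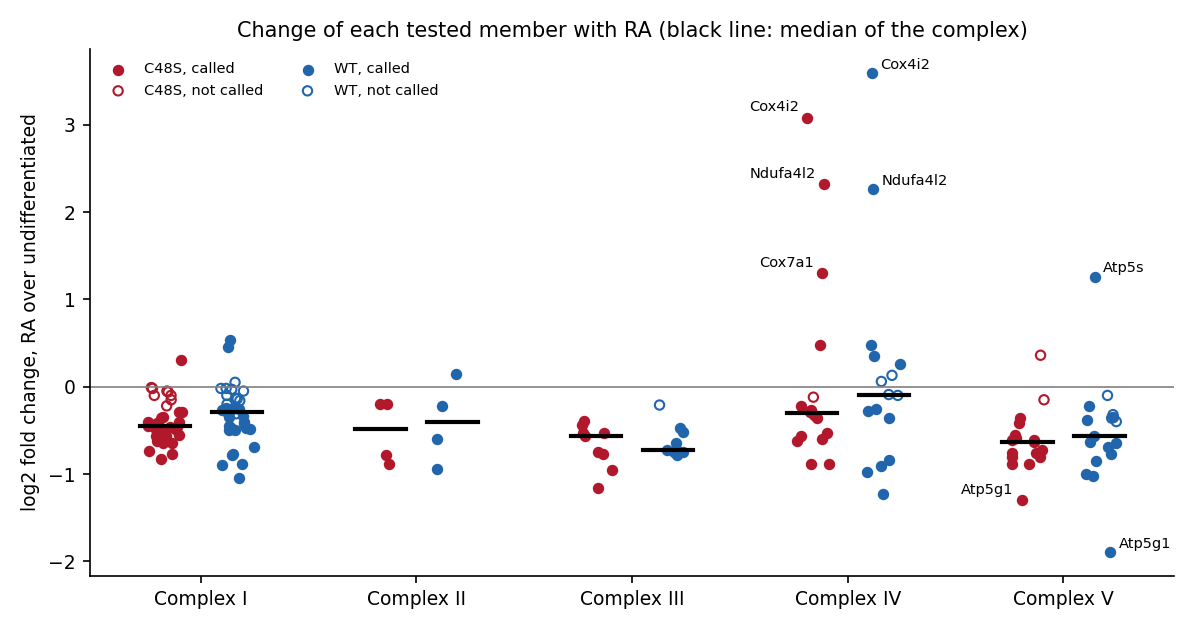
Log2 fold change with RA over undifferentiated cells of each tested member, by complex, in C48S (red, left of each pair) and WT (blue, right), filled where called and open where not, with the median of the complex as a black line. Most points lie below 0 on the TMM scale, where the median of all members in WT is -0.36 against -0.02 on total-count scaling, and the highest points, Cox4i2 and Ndufa4l2, belong to complex IV.

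Complex I is the NADH dehydrogenase that starts the chain. Of its 35 genes 25 fell and 1 rose with RA in C48S (median -0.45), and 22 fell and 2 rose in WT (-0.29). Ndufv2, a core iron-sulphur subunit of the NADH-oxidizing arm, had 90.4, 89.9 and 86.1 CPM in C48S RA against 147, 153 and 175 CPM in C48S undifferentiated, and 91.9, 102 and 93.5 CPM in WT RA against 198, 204 and 192 CPM in WT undifferentiated libraries. The states did not overlap in either line. Ndufv2 fell by 0.83 ± 0.06 in C48S (edgeR adjusted p = 9.62e-15) and by 1.05 ± 0.06 in WT (edgeR adjusted p = 9.53e-18) on the log2 scale.

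Ndufs1, the largest subunit of that arm, had 96.7, 93.6 and 91.9 CPM in C48S RA against 157, 147 and 177 CPM in C48S undifferentiated, and 77.7, 84 and 79.7 CPM in WT RA against 143, 157 and 143 CPM in WT undifferentiated libraries. It fell by 0.77 ± 0.06 in C48S and 0.88 ± 0.06 in WT. The other core genes of complex I fell as well, except Ndufv1, which binds the flavin that accepts electrons from NADH: its change was -0.57 ± 0.10 and called in C48S, and -0.20 ± 0.10 and not called in WT (edgeR adjusted p = 0.0833). Without C48S undifferentiated replicate 3 the WT value of Ndufv1 was -0.19 and called. Counting 15 catalytic and core genes of complexes I, II, III and V, 15 fell in C48S (median -0.59) and 14 in WT (median -0.69).

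Ndufs7 belongs to the core that reaches ubiquinone, whereas Ndufb5, Ndufs4 and Ndufs6 are accessory. Ndufs7 changed by -0.57 ± 0.10 in C48S and -0.90 ± 0.10 in WT, Ndufb5 by -0.74 ± 0.09 and -0.50 ± 0.09, Ndufs4 by -0.64 ± 0.09 and -0.47 ± 0.09, and Ndufs6 by -0.65 ± 0.09 and -0.41 ± 0.10. All of these were called in both lines. Replicate 3 of C48S undifferentiated weighed on Ndufa5, which fell by 0.62 ± 0.12 in C48S with it and by 0.40 without it, on Ndufb9, 0.56 and 0.37, on Ndufb10, 0.47 and 0.28, and on Ndufc2, 0.45 and 0.25.

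Ndufv3 went the other way. It had 46, 49.5 and 50.3 CPM in C48S RA against 38.5, 38.6 and 41 CPM in C48S undifferentiated, and 54.7, 50.2 and 56.1 CPM in WT RA against 39.3, 38.5 and 33.6 CPM in WT undifferentiated libraries. This small accessory subunit of the NADH-oxidizing arm rose by 0.30 ± 0.08 in C48S (edgeR adjusted p = 5.91e-04) and by 0.53 ± 0.08 in WT (1.69e-07). Ndufb11, an X-linked membrane-arm subunit, was the other gene of the complex that rose in WT (0.46 ± 0.09). In C48S it had a change of -0.10 ± 0.08, which did not pass the test.

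Complex II, succinate dehydrogenase, also works in the citric acid cycle and has no mitochondrially encoded subunit. Sdhd, one of its membrane anchors, had 51.1, 53 and 50.4 CPM in C48S RA against 97, 88.8 and 97.9 CPM in C48S undifferentiated, and 48.4, 47.4 and 48.4 CPM in WT RA against 87.6, 92 and 97.2 CPM in WT undifferentiated libraries. It fell by 0.88 ± 0.06 in C48S and 0.94 ± 0.06 in WT, the largest falls of the complex. The iron-sulphur subunit Sdhb had 41.9, 42.9 and 41.9 CPM in C48S RA against 62.9, 63.5 and 91.1 CPM in C48S undifferentiated, and 49.1, 44.6 and 43.1 CPM in WT RA against 68.1, 66.3 and 72.6 CPM in WT undifferentiated libraries, falls of 0.78 ± 0.11 and 0.60 ± 0.11.

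The remaining genes of complex II moved less. Sdha, the flavoprotein that oxidizes succinate, had 196, 208 and 195 CPM in C48S RA against 226, 227 and 236 CPM in C48S undifferentiated, and 215, 216 and 225 CPM in WT RA against 265, 248 and 252 CPM in WT undifferentiated libraries. It fell by 0.20 ± 0.05 in C48S and 0.22 ± 0.05 in WT, a direction that flipped to 0.03 and 0.12 on total-count scaling. Sdhc, the other membrane anchor, had 69.6, 72.7 and 69.3 CPM in C48S RA against 77.5, 79.2 and 85.6 CPM in C48S undifferentiated, and 85.5, 87.1 and 81.4 CPM in WT RA against 74.1, 77.9 and 76.1 CPM in WT undifferentiated libraries. Its states did not overlap in either line, but in opposite directions: it fell by 0.20 ± 0.06 in C48S (0.04, the opposite sign, on total-count scaling) and rose by 0.15 ± 0.06 in WT (edgeR adjusted p = 0.0183), a call lost without WT RA replicate 2 or WT undifferentiated replicate 1. The anchors Sdhc and Sdhd, which form 1 membrane domain, therefore had unequal changes.

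Complex III is the cytochrome bc1 complex. All 9 genes fell in C48S (median -0.56) and 8 of 9 in WT (-0.72). Uqcrfs1, the Rieske iron-sulphur protein, had 38, 40.0 and 38.2 CPM in C48S RA against 72.7, 75 and 112 CPM in C48S undifferentiated, and 49.2, 47.7 and 42.7 CPM in WT RA against 82.4, 77 and 74.6 CPM in WT undifferentiated libraries. It fell by 1.16 ± 0.15 in C48S (edgeR adjusted p = 4.08e-05), or 0.93 without replicate 3, and by 0.75 ± 0.15 in WT (9.81e-04).

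Cyc1, which carries the haem that hands electrons to cytochrome c, fell by 0.53 ± 0.06 in C48S and 0.75 ± 0.06 in WT. The core proteins Uqcrc1 and Uqcrc2, which face the matrix, fell by 0.75 ± 0.06 and 0.44 ± 0.06 in C48S and by 0.64 ± 0.06 and 0.52 ± 0.06 in WT. Uqcrb fell by 0.77 ± 0.08 and 0.78 ± 0.09 in C48S and WT, and Uqcr11, a small peripheral subunit, by 0.53 ± 0.09 and 0.47 ± 0.10. Uqcrh, the hinge protein between cytochrome c1 and cytochrome c, was the exception in WT at -0.21 ± 0.12 (edgeR adjusted p = 0.143). It fell by 0.39 ± 0.12 in C48S, or 0.19 without replicate 3 of C48S undifferentiated, and without that library it was called in WT too, at -0.20.

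Complex V makes ATP. Of 17 genes tested 15 fell in C48S (median -0.63), and 12 fell and 1 rose in WT (-0.57). Atp5b, by far the most abundant, had 1081, 1064 and 1046 CPM in C48S RA against 1569, 1579 and 1655 CPM in C48S undifferentiated, and 1043, 1041 and 1018 CPM in WT RA against 1919.7, 1856 and 1801 CPM in WT undifferentiated libraries. The lines lay close after RA, with a difference of 0.04 ± 0.04 that was not called (edgeR adjusted p = 0.436), and Atp5b fell by 0.59 ± 0.04 in C48S (edgeR adjusted p = 1.29e-14) and 0.85 ± 0.04 in WT (3.58e-19). Atp5a1 fell by 0.61 ± 0.05 and 0.64 ± 0.05 in C48S and WT.

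The c subunit, whose ring turns as protons pass, is encoded by Atp5g1, Atp5g2 and Atp5g3, whose mature proteins are identical. Atp5g1, at chr11:95959678-95966496 on the minus strand of GRCm39, had 56.3, 56.3 and 56.2 CPM in C48S RA, 79.1, 72.6 and 79 CPM in WT RA, 126, 134 and 155 CPM in C48S undifferentiated and 295, 285 and 274 CPM in WT undifferentiated libraries. No group overlapped another. It fell by 1.30 ± 0.06 in C48S (edgeR adjusted p = 5.60e-19) and by 1.89 ± 0.06 in WT (2.03e-24), the largest fall of any member in each line. Atp5g2 fell by 0.36 ± 0.07 in C48S and 0.22 ± 0.06 in WT, and Atp5g3 by 0.61 ± 0.06 and 0.57 ± 0.06. Per kilobase, Atp5g1 gave 11.9 ± 0.609% of the c-subunit transcripts in C48S RA, 12.3 ± 1.08% in WT RA, 19.2 ± 1.8% in C48S undifferentiated and 28.5 ± 0.319% in WT undifferentiated libraries (SD, n = 3 each). The size of these shares rests on exon models of 4912 bases for Atp5g1, 1675 for Atp5g2 and 2181 for Atp5g3. Without division by length, Atp5g1 gave 56.3 of 219 CPM in C48S RA and 76.9 of 288 in WT RA. It gave 138 of 368 CPM in C48S undifferentiated and 284 of 563 in WT undifferentiated libraries.

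Stalk and membrane genes of the ATP synthase followed the head. Atp5c1, the gamma shaft, fell by 0.76 ± 0.06 in C48S and 0.69 ± 0.06 in WT, Atp5o, the OSCP subunit that joins head and stator, by 0.76 ± 0.06 and 0.63 ± 0.06, and Atp5j2, the f subunit, by 0.88 ± 0.08 and 1.00 ± 0.08. Atp5k, the e subunit, fell by 0.80 ± 0.12 and 1.02 ± 0.13. Atp5f1, the b subunit of the stator, did not pass the test in either line (-0.15 ± 0.08 and -0.10 ± 0.08).

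Several small genes of complex V rested on the library that stands apart. Atp5e, the epsilon subunit, had 26.4, 26.3 and 26.5 CPM in C48S RA, 23.7, 23.3 and 24.8 CPM in WT RA, 38.9, 36 and 72.8 CPM in C48S undifferentiated and 31.4, 28.8 and 32.2 CPM in WT undifferentiated libraries. Its fall in C48S was 0.89 ± 0.24, or 0.50 without replicate 3, and in WT the change of -0.36 ± 0.26 was not called. Without replicate 3 the WT value was -0.35 and called. Atp5h, the d subunit of the stator, fell by 0.72 ± 0.18 in C48S, or 0.44 without that library, and Atp5mpl by 0.80 ± 0.20, or 0.50. In WT both were called only without that library, at -0.30 and -0.39.

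Atp5s, also known as factor B and not counted among the core subunits of the enzyme, had 8.22, 6.92 and 7.92 CPM in C48S RA against 6.79, 5.22 and 5.89 CPM in C48S undifferentiated, and 10.7, 9.01 and 12.3 CPM in WT RA against 4.51, 5.29 and 3.25 CPM in WT undifferentiated libraries. It rose by 1.26 ± 0.17 in WT (edgeR adjusted p = 5.55e-08), the one rise in complex V. In C48S its change of 0.36 ± 0.17 did not pass the test (edgeR adjusted p = 0.0551).

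Complex IV is cytochrome c oxidase. Of 16 genes tested 11 fell and 4 rose in C48S (median -0.31), and 7 fell and 5 rose in WT (-0.09). Cox5a, a matrix-facing subunit, had 96.9, 94.9 and 83.6 CPM in C48S RA against 154, 166 and 187 CPM in C48S undifferentiated, and 86.9, 82.5 and 72.7 CPM in WT RA against 193, 192 and 183 CPM in WT undifferentiated libraries. It fell by 0.88 ± 0.07 in C48S (edgeR adjusted p = 9.45e-12) and by 1.23 ± 0.07 in WT (6.43e-15), the steepest fall of the complex in WT. Cox6b1, which faces the intermembrane space, fell by 0.88 ± 0.06 and 0.98 ± 0.06, and Cox7c, a small membrane subunit, by 0.53 ± 0.05 and 0.26 ± 0.05.

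Other ubiquitous genes of complex IV barely moved or moved apart. Cox4i1, the ubiquitous isoform of subunit 4, had 268, 271 and 253 CPM in C48S RA against 254, 254 and 354 CPM in C48S undifferentiated, and 204, 212 and 211 CPM in WT RA against 202, 194 and 176 CPM in WT undifferentiated libraries. The states overlapped in C48S, and Cox4i1 was called in neither line (-0.12 ± 0.12 and 0.13 ± 0.12). On total-count scaling the values were 0.11 in C48S and 0.48, then called, in WT, where the states did not overlap. Without C48S undifferentiated replicate 3 the WT value was 0.14 and called. Cox8a, the smallest subunit, had 123, 123 and 125 CPM in C48S RA against 157, 148 and 148 CPM in C48S undifferentiated, and 154, 149.7 and 144 CPM in WT RA against 145, 145 and 141 CPM in WT undifferentiated libraries. It fell by 0.29 ± 0.05 in C48S (edgeR adjusted p = 3.49e-06), whereas in WT its change was 0.06 ± 0.05 and not called.

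Cox7b had 97.6, 94.2 and 99.7 CPM in C48S RA against 125, 125 and 115 CPM in C48S undifferentiated, and 93.1, 88.2 and 80.8 CPM in WT RA against 107, 108 and 102 CPM in WT undifferentiated libraries. This membrane subunit fell by 0.32 ± 0.06 in C48S and by 0.28 ± 0.06 in WT, where total-count scaling gave 0.07, the opposite sign. Cox6a1 had 88.1, 87.3 and 90.6 CPM in C48S RA against 108, 104 and 181 CPM in C48S undifferentiated, and 75.5, 78.7 and 73.3 CPM in WT RA against 84.2, 80.7 and 79.6 CPM in WT undifferentiated libraries. The 181 CPM of replicate 3 set the size of its fall in C48S, 0.56 ± 0.19 with it and 0.26 without it, and in WT the change of -0.10 ± 0.20 was not called.

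Tissue-restricted isoforms of complex IV made up 4 of the 5 rises in C48S and 3 of the 9 in WT. Of 8 such genes 4 could be tested, Cox4i2, Cox6b2, Cox7a1 and Ndufa4l2, and all 4 rose in C48S, whereas 3 rose and Cox7a1 fell in WT. None of the ubiquitous partners rose in either line, although Cox4i1 did in WT on total-count scaling or without C48S undifferentiated replicate 3, and Ndufa4 turned positive on total-count scaling and was then called higher in WT. Ndufa4l2 (chr10:127350836-127353023, plus strand, GRCm39), a relative of Ndufa4 known as a hypoxia-induced gene, had 38.8, 40.4 and 41.3 CPM in C48S RA against 8.82, 6.71 and 8.38 CPM in C48S undifferentiated, and 21.9, 24.1 and 25.7 CPM in WT RA against 5.77, 4.53 and 4.77 CPM in WT undifferentiated libraries. All 4 groups were apart. It rose by 2.32 ± 0.11 in C48S (edgeR adjusted p = 1.18e-19) and 2.26 ± 0.13 in WT (1.45e-17).

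Ndufa4 itself had 104, 110.5 and 108 CPM in C48S RA against 121, 117 and 137 CPM in C48S undifferentiated, and 60.8, 71.9 and 68.3 CPM in WT RA against 70.8, 69.1 and 74 CPM in WT undifferentiated libraries. It fell by 0.22 ± 0.06 in C48S, or 0.14 without replicate 3, and had a change of -0.09 ± 0.07 in WT that was not called. Total-count scaling turned both values positive, at 0.02 and 0.26. Per kilobase, Ndufa4l2 gave 32 ± 0.476% of the transcripts of the pair in C48S RA and 31 ± 1.24% in WT RA, against 7.44 ± 0.848% in C48S undifferentiated and 8.16 ± 1% in WT undifferentiated libraries (SD, n = 3 each).

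Cox4i2 (chr2:152596093-152606957, plus strand, GRCm39), the lung and hypoxia isoform of subunit 4, had 4.53, 3.18 and 4.75 CPM in C48S RA against 0.509, 0.746 and 0.207 CPM in C48S undifferentiated, and 3.21, 3 and 2.44 CPM in WT RA against 0.419, 0.168 and 0.108 CPM in WT undifferentiated libraries. It rose by 3.08 ± 0.36 in C48S (edgeR adjusted p = 1.77e-09) and by 3.59 ± 0.45 in WT (7.73e-09), the largest rise of any member, from 15 counts over the C48S and 7 over the WT undifferentiated libraries. It remained a small part of the pair with Cox4i1, at 3.01 ± 0.679% in C48S RA and 2.65 ± 0.393% in WT RA (SD, n = 3 each).

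Cox6b2 (chr7:4754791-4756093, minus strand, GRCm39), known as the testis isoform of Cox6b1, had 51.1, 55.6 and 56.3 CPM in C48S RA against 34.4, 34.3 and 48.9 CPM in C48S undifferentiated, and 37.6, 32.4 and 32.3 CPM in WT RA against 24.6, 24.5 and 24.1 CPM in WT undifferentiated libraries. It rose by 0.48 ± 0.10 in C48S and 0.48 ± 0.11 in WT. Cox6b1 had 91.7, 91.7 and 96.3 CPM in C48S RA against 166, 154 and 196 CPM in C48S undifferentiated, and 77, 76.6 and 77.1 CPM in WT RA against 152, 157 and 148 CPM in WT undifferentiated libraries. Cox6b2 thus gave 27.1 ± 0.845% of the pair per kilobase in C48S RA and 22.1 ± 1.49% in WT RA, against 12.6 ± 1.03% in C48S undifferentiated and 9.31 ± 0.195% in WT undifferentiated libraries (SD, n = 3 each).

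**Figure D3:**
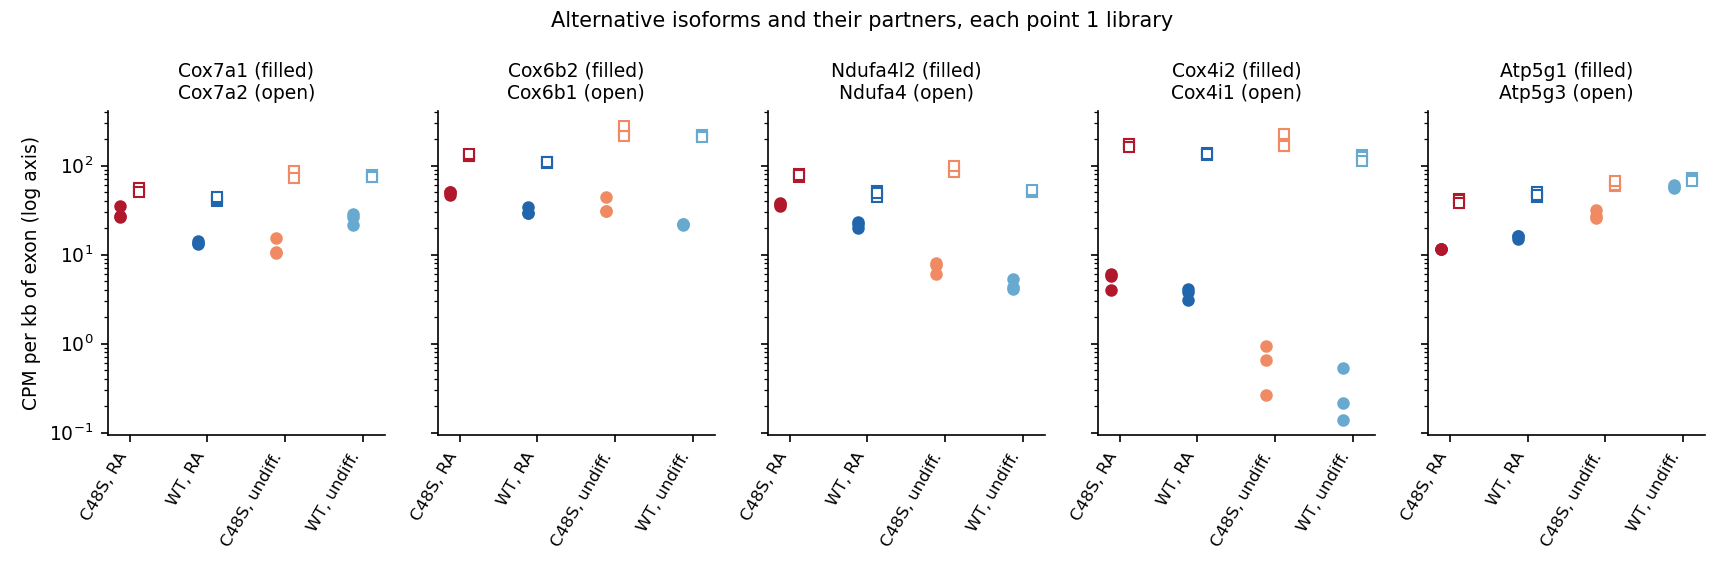
CPM per kilobase of exon on a log axis for 5 pairs of genes of the same subunit, the first gene of each pair as filled circles and its partner as open squares, each point 1 library, in the order C48S RA, WT RA, C48S undifferentiated and WT undifferentiated. Cox7a1 is higher in C48S RA and WT undifferentiated libraries than in the other groups, Ndufa4l2 and Cox4i2 are high in both RA groups, and Atp5g1 is highest in WT undifferentiated libraries.

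Only Cox7a1 among the members was called higher with RA in C48S and lower in WT. This isoform of subunit 7a, typical of heart and skeletal muscle, lies at chr7:29883569-29885503 on the plus strand of GRCm39. It had 18.7, 14.6 and 14.3 CPM in C48S RA, 7.15, 7.03 and 7.62 CPM in WT RA, 5.6, 5.65 and 8.27 CPM in C48S undifferentiated and 15.3, 14.1 and 11.4 CPM in WT undifferentiated libraries. C48S RA did not overlap WT RA, nor did the lines overlap before RA, and the higher line changed with the state. With RA it rose by 1.30 ± 0.15 in C48S (edgeR adjusted p = 2.50e-09) and fell by 0.91 ± 0.15 in WT (2.70e-06). C48S stood above WT by 1.13 ± 0.15 after RA (5.47e-08) and below it by 1.08 ± 0.16 before RA (4.59e-07). The RA changes of the lines differed by 2.21 ± 0.22 (edgeR adjusted p = 2.42e-10), the one such difference among the members past a fold of 1.5, a threshold that 7.61% of all genes passed upward and 4.97% downward, 12.6% in all.

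Cox7a2, the ubiquitous partner, had 49, 52.7 and 47.4 CPM in C48S RA, 38, 39.6 and 41.9 CPM in WT RA, 79.2, 81.9 and 67.8 CPM in C48S undifferentiated and 70.5, 74.3 and 69.7 CPM in WT undifferentiated libraries. It fell by 0.62 ± 0.07 in C48S and 0.84 ± 0.07 in WT. Cox7a1 gave 35.9 ± 3.88% of the pair per kilobase in C48S RA, 24.3 ± 0.533% in WT RA, 13.2 ± 3.89% in C48S undifferentiated and 25.1 ± 2.67% in WT undifferentiated libraries (SD, n = 3 each). The 10 muscle cell markers summed to 71.3 to 79.7, 77.1 to 86.4, 262 to 333 and 741 to 840.0 CPM in those groups, with 5, 1, 5 and 2 of them under 1 CPM and none at 0 counts. Most of that sum was Ttn, the giant sarcomere protein, at 52.1, 52, 288 and 760.4 CPM on average. The markers' part in Cox7a1 was not tested.

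The promoters of this pair are shown because its genes moved in opposite directions with RA in C48S. Each window is the RefSeq sequence from 250 bases before to 50 after the annotated start, on GRCm38.p6, the preceding build: chr7:30183921-30184220 on the plus strand for Cox7a1 and chr9:79759804-79760103 on the minus strand for Cox7a2. The windows hold 7 and 20 CG dinucleotides, against a median of 19 in the members' windows and 21 in those of protein-coding genes tested. Neither holds any of the motifs searched below.
Cox7a1: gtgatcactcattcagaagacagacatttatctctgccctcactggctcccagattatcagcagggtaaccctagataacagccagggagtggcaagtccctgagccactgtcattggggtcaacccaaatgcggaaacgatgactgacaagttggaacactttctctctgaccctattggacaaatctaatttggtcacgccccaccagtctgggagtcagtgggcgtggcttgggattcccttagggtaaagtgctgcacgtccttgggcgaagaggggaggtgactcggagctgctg
Cox7a2: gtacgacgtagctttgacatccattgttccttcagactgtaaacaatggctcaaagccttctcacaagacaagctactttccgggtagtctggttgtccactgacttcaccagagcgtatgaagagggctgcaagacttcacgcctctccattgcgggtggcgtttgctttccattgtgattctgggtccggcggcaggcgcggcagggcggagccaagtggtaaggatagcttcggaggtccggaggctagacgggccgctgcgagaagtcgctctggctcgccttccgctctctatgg

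The RA change itself differed between the lines for 19 members. The difference, the change in C48S minus that in WT, was positive for 8 of 81 and negative for 11, against 22.2% and 17.2% of all genes tested, 39.4% in all. The members' median was -0.07 and that of all genes 0.02. Without replicate 3 of C48S undifferentiated 13 were positive and 14 negative at a median of 0.00, on RLE scaling 5 and 11, and on total-count scaling 5 and 23. Over all genes tested in those fits, 4367 were positive and 3404 negative without that library. The counts were 3769 and 3246 on RLE scaling and 3203 and 4039 on total-count scaling.

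Besides Cox7a1, the largest positive difference was that of Atp5g1 at 0.59 ± 0.09 (edgeR adjusted p = 1.09e-06), which fell less deeply in C48S. Ndufa6, a complex I subunit of the LYR family, had 26.8, 27.6 and 25.7 CPM in C48S RA against 27.3, 26.5 and 27.4 CPM in C48S undifferentiated, and 27.1, 26 and 28.6 CPM in WT RA against 35.2, 35.9 and 39.2 CPM in WT undifferentiated libraries. Only the WT undifferentiated libraries stood apart, and the difference was 0.41 ± 0.12 (edgeR adjusted p = 0.00536). Cox5a followed at 0.36 ± 0.10 (0.00472) and Atp5b at 0.26 ± 0.06 (6.90e-04).

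The largest negative differences were those of Atp5s, at -0.90 ± 0.25 (edgeR adjusted p = 0.00326), and Cox5b. Cox5b (chr1:36730530-36732762, plus strand, GRCm39), the zinc-binding subunit of complex IV, had 59.5, 65 and 57.5 CPM in C48S RA against 76.3, 73.1 and 83.5 CPM in C48S undifferentiated, and 69.6, 72.8 and 65.9 CPM in WT RA against 51.5, 57.5 and 53.9 CPM in WT undifferentiated libraries. It fell by 0.36 ± 0.07 in C48S and rose by 0.35 ± 0.07 in WT, a difference of -0.71 ± 0.10 (edgeR adjusted p = 2.09e-07). Cox5a, a different subunit and not an isoform of Cox5b, fell in both lines.

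Cox7a2l (chr17:83809347-83824759, minus strand, GRCm39), known as a factor of respiratory supercomplexes, had 76.9, 71.4 and 74.2 CPM in C48S RA against 84, 90.0 and 94.1 CPM in C48S undifferentiated, and 120.4, 115 and 110.2 CPM in WT RA against 94.1, 100.2 and 93.9 CPM in WT undifferentiated libraries. The states lay apart in each line, in opposite directions. It fell by 0.27 ± 0.06 in C48S and rose by 0.26 ± 0.06 in WT, a difference of -0.53 ± 0.08 (edgeR adjusted p = 2.53e-06). Ndufb11 had 49, 52.2 and 51.4 CPM in C48S RA against 47.9, 52.2 and 63.7 CPM in C48S undifferentiated, and 49.5, 55.9 and 47.3 CPM in WT RA against 38.7, 37.3 and 34.9 CPM in WT undifferentiated libraries, a difference of -0.56 ± 0.12 (edgeR adjusted p = 2.86e-04). The RA comparisons of the 2 lines share no library.

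**Figure D4:**
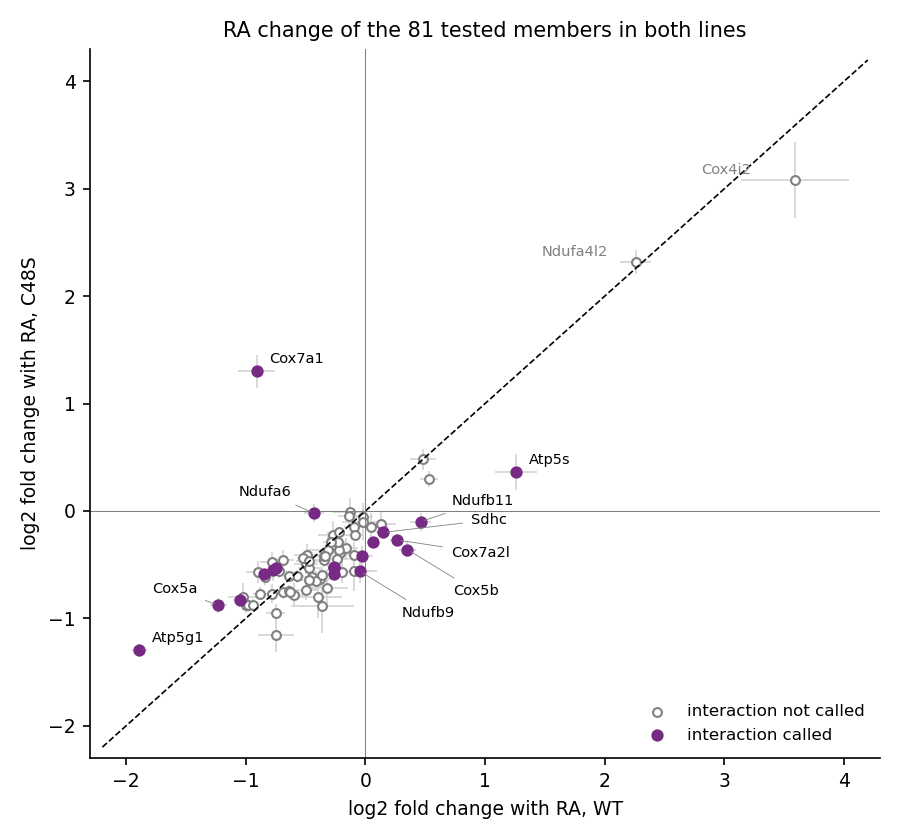
Log2 fold change with RA of each tested member in C48S (vertical axis) against WT (horizontal axis) with SE bars and a dashed diagonal of equal change, filled where the RA changes of the lines differ by the test and open where they do not pass it. Most members lie in the lower left, 49 being called lower in both lines on the TMM scale, Cox7a1 lies at 1.30 in C48S and -0.91 in WT, and Cox5b, Cox7a2l and Sdhc lie at negative values in C48S (Sdhc at 0.04 on total-count scaling) and positive values in WT.

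Between the lines the subunits were called in both directions. After RA 15 of 81 members were higher in C48S and 22 lower, against 28.8% and 25.7% of all genes tested, 54.5% in all. Before RA 18 were higher and 16 lower, against 27.5% and 28.1%, 55.6% in all. The members' medians were -0.02 after and 0.03 before RA, beside 0.02 and 0.00 for all genes. Past a fold of 1.5, 1 member was higher and 1 lower after RA (7.92% and 8.54% of all genes, 16.5% in all), and 1 higher and 3 lower before RA (9.33% and 10.8%, 20.1% in all). The split of calls moved with the scale: after RA it was 12 higher and 28 lower on RLE and 13 and 27 on total-count scaling, and before RA 14 and 20 on RLE and 25 and 10 on total-count scaling. Over all genes tested the split after RA was 4629 higher and 5072 lower on RLE and 4777 and 4964 on total-count scaling. Before RA that split was 4725 and 5251 on RLE and 5744 and 4404 on total-count scaling. Without C48S undifferentiated replicate 3 the members' split was 16 higher and 26 lower before RA, with Cox6b1, Atp5l and Ndufs6 no longer called. After RA 13 higher and 27 lower were called among protein-coding genes alone.

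By complex, the higher calls gathered in complex IV, with 9 higher and 4 lower after RA and 8 and 2 before RA, of 16 tested. Complex V had 1 higher and 7 lower after RA and 3 and 5 before RA, complex III none higher and 3 lower in each state, and complex I 5 higher and 6 lower after RA and 7 and 5 before RA. In complex II, Sdha was lower in C48S in both states and Sdhc after RA. In all, 10 members (12.3%) were higher in C48S in both states and 8 (9.88%) lower in both, against 15.3% and 13.5% of all genes tested. The higher ones were Cox4i1, Cox6b1, Cox6b2, Cox7b, Ndufa4 and Ndufa4l2 of complex IV and Ndufa5, Ndufa9, Ndufa13 and Ndufb2 of complex I. The lower ones were Atp5c1, Atp5g1, Atp5g2 and Atp5g3, Uqcr10 and Uqcrq, Ndufb10 and Sdha. Cox5a and Cox7a1 were higher after and lower before RA, and Atp5s and Cox5b lower after and higher before. Some of these calls were lost when 1 of the 12 libraries was left out: Cox4i1 after RA in 8 of 12 such fits, Atp5s before RA in 7, Cox7b after RA in 6, Cox5a before RA in 4, Cox5b after RA and Cox6b1 before RA in 3 each, and Ndufb2 and Sdha after RA in 2 each.

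Ndufa4 had the largest called difference upward before RA, at 0.81 ± 0.06 (edgeR adjusted p = 3.67e-13), and was 0.68 ± 0.06 higher after RA (3.61e-11), with no overlap of the lines in either state. Ndufa4l2 was higher by 0.75 ± 0.09 after and 0.68 ± 0.15 before RA, and Cox6b2 by 0.67 ± 0.10 and 0.68 ± 0.11. Cox4i1 was higher by 0.34 ± 0.12 after and 0.59 ± 0.12 before RA. Cox6a1, called before RA at 0.68 ± 0.19 (edgeR adjusted p = 0.0154), stood at 0.39 without replicate 3, and Atp5e, at 0.67 ± 0.24, stood at 0.29. Ndufb7, at 0.44 ± 0.17 before RA, stood at 0.20, and Ndufs7, lower by 0.27 ± 0.10, stood at -0.42.

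Several c-ring and complex III genes were lower in C48S. Atp5g1 was lower by 0.45 ± 0.07 after RA (edgeR adjusted p = 4.94e-07) and by 1.04 ± 0.06 before RA (5.26e-17). Uqcr10 (chr11:4651973-4654342, minus strand, GRCm39), a small subunit of complex III, had 41.6, 46.5 and 42.7 CPM in C48S RA against 79.1, 80.4 and 73.3 CPM in WT RA, and 73.9, 78 and 100.3 CPM in C48S undifferentiated against 131, 134 and 126 CPM in WT undifferentiated libraries. The lines did not overlap, and Uqcr10 was lower by 0.83 ± 0.09 after and 0.64 ± 0.08 before RA. Uqcrq, the ubiquinone-binding subunit, had 45.3, 47.6 and 43.3 CPM in C48S RA against 68.4, 71.3 and 71.3 CPM in WT RA, and 64.3, 63.6 and 72.5 CPM in C48S undifferentiated against 120.1, 117 and 111 CPM in WT undifferentiated libraries. It was lower by 0.63 ± 0.07 after and 0.80 ± 0.06 before RA. Atp5g2 was lower by 0.56 ± 0.07 after and 0.41 ± 0.06 before RA.

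Many of these genes lie on chromosomes where C48S differed from WT as a whole. The 4 members on chromosome 6, Ndufa4, Ndufa5, Ndufa9 and Ndufb2, were all higher in C48S in both states, with medians of 0.45 after and 0.64 before RA, beside 0.59 and 0.57 for the other genes tested there. The 3 on chromosome 8, Cox4i1, Ndufa13 and Ndufb7, had medians of 0.34 after and 0.59 before RA, beside 0.54 and 0.50. The 4 on chromosome 11, Atp5g1, Atp5h, Uqcr10 and Uqcrq, had medians of -0.56 and -0.72, beside -0.49 and -0.53.

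The members' medians on these chromosomes thus had the same sign as those of their neighbours, while single members varied. On chromosome 11 the members ran from -1.04 to -0.09 before RA. On chromosome 6, 65.1% of the other genes were higher after RA and 57.9% before, and on chromosome 11, 65.2% and 61% were lower. Of the remaining 70 tested members 9 were higher (12.9%) and 18 lower (25.7%) after RA, with a median of -0.03. Before RA 11 were higher (15.7%) and 13 lower (18.6%), with a median of 0.02. Of the other genes tested off chromosomes 6, 8 and 11, 26.4% were higher and 24.2% lower after RA, and 25.2% and 27.2% before RA. Among those 70 members, called differences of 0.64 or more in at least 1 state included those of Ndufa4l2 on chromosome 10 and Cox6b2 and Cox7a1 on chromosome 7. Cox7a2l on chromosome 17 was lower by 0.64 ± 0.06 after RA (edgeR adjusted p = 1.57e-11). Cox6a1 on chromosome 5 and Atp5e on chromosome 2 also passed 0.64 before RA. Without C48S undifferentiated replicate 3 these 2 stood at 0.39 and 0.29. The chromosomes' part in the line differences was not tested beyond these values.

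**Figure D5:**
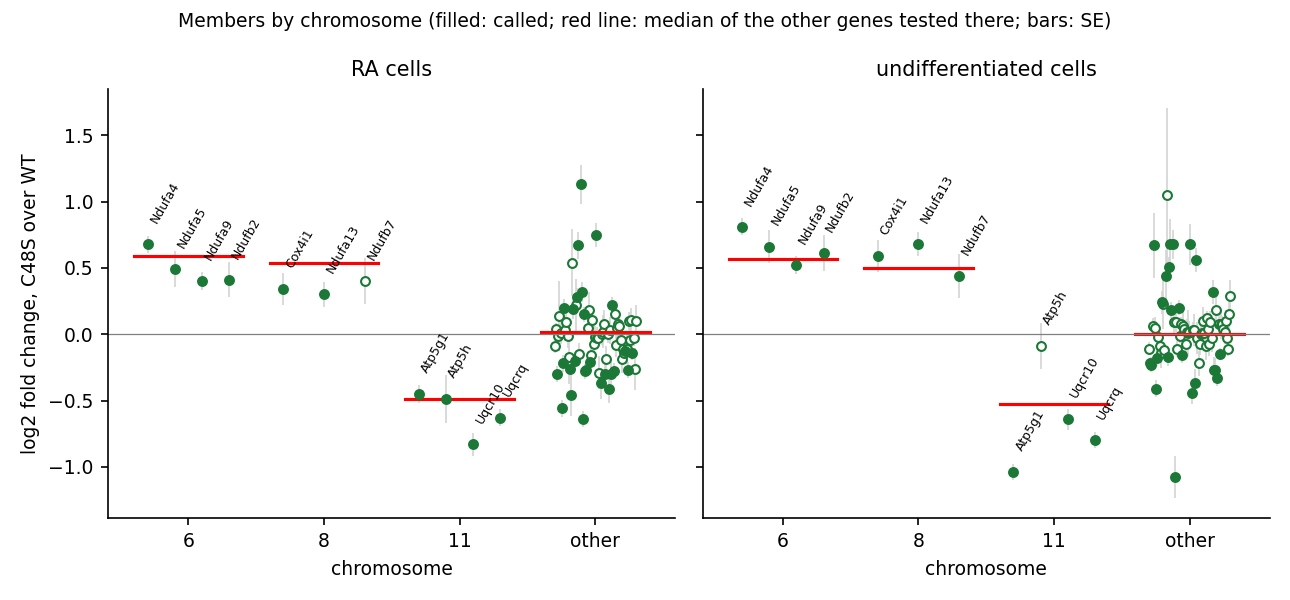
Log2 difference of C48S from WT with SE bars for each tested member after RA (left panel) and before RA (right panel), by chromosome 6, 8, 11 or any other, filled where called, with the median of the other genes tested there as a red line. Members on chromosomes 6 and 8 lie above 0 and those on chromosome 11 below 0 in both states, beside medians of 0.59, 0.54 and -0.49 after RA for the other genes there.

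Promoter sequence was then described for the family, since NRF1, ETS factors such as GABPA and YY1 are known to bind promoters of respiratory genes. RefSeq windows of 300 bases were matched for 66 of the 86 members, with 71 windows in all. The letters searched, on both strands, were GCGCATGCG and GCGCACGCG for NRF1, CCGGAAGT for ETS and AAGATGGCG for YY1, and no matches of different motifs overlapped in a member's window. An NRF1 match was present in 13 members (19.7%), against 7.54% of 11376 other protein-coding genes tested and 3.8% of all 27025 genes of the table. YY1 matched in 7 members (10.6%), against 3.15% and 1.64%, and ETS in 5 (7.58%), against 8.29% and 4.31%.

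Of the 24 tested members with any match 18 were lower with RA in both lines, as were 23 of 40 with none. By motif the counts were 10 of 13 for NRF1, 7 of 7 for YY1 and 2 of 5 for ETS. Of all 81 members tested 60.5% were lower in both lines, and of all 17940 genes tested 28.3%. Whether a match and the change go together was not tested. A match describes letters in a window and shows no binding. As examples, 1 window each is shown for NRF1 alone (Ndufa6, which fell in WT and was not called in C48S), for ETS with NRF1 (Uqcr11) and for YY1 (Atp5j, the F6 coupling subunit of the ATP synthase, its other window having no match), the last pair being lower in both lines. Capitals mark the match. The windows on GRCm38.p6, all on the minus strand, are chr15:82354242-82354541, chr10:80406772-80407071 and chr16:84834927-84835226.
Ndufa6: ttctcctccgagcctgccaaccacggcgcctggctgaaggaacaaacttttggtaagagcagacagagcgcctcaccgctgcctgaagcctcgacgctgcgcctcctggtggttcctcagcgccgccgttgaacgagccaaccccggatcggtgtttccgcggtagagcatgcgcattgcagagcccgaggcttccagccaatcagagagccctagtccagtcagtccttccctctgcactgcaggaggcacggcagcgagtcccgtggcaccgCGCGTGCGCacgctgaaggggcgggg
Uqcr11: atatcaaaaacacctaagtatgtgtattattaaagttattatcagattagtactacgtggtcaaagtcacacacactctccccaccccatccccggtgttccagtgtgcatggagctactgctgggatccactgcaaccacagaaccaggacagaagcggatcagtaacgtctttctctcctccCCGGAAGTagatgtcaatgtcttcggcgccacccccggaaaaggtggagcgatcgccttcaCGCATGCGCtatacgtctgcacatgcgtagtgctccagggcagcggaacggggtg
Atp5j: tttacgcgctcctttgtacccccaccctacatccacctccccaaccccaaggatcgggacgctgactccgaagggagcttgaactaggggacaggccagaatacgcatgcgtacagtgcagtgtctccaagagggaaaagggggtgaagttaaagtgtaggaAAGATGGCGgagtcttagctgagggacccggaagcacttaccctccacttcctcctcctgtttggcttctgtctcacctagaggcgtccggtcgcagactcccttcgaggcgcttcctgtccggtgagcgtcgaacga

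A wider list of regulators of respiratory genes, which holds the factors named for these motifs, was counted by the same test. Of 12 regulators tested 9 fell and 2 rose in C48S, and 9 fell and 1 rose in WT, while Ppargc1a was too low to test. Of all genes tested 34.6% fell and 39.0% rose in C48S, and 37.4% and 40.9% in WT. A link between these regulators and the members was not tested. Nrf1 fell by 1.00 ± 0.06 in C48S and 0.82 ± 0.06 in WT, Gabpa by 0.73 ± 0.05 and 1.27 ± 0.05, and Pprc1, a coactivator of the PGC-1 family, by 1.40 ± 0.05 and 2.06 ± 0.05. Esrrb, an orphan nuclear receptor that is also a naive pluripotency factor, fell by 3.00 ± 0.05 in C48S and 5.79 ± 0.07 in WT. Yy1 fell by 0.24 ± 0.05 in WT and had a change of -0.10 ± 0.05 in C48S that was not called.

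Cytochrome c, which carries electrons between complexes III and IV, is outside the rule. Cycs, its somatic gene on chromosome 6, fell by 0.75 ± 0.07 in C48S and 0.98 ± 0.08 in WT. Hccs, the lyase that attaches its haem, fell by 0.88 ± 0.09 and 1.73 ± 0.10. Cyct, the testis gene, rose by 1.10 ± 0.15 in C48S and fell by 0.51 ± 0.11 in WT, opposite signs in the 2 lines as for Cox7a1, and the RA changes differed by 1.61 ± 0.18 (edgeR adjusted p = 5.46e-09).

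Genes that build and feed the complexes were counted by the same test. Of 16 assembly factors of complex I, 12 fell and 1 rose in C48S and 10 fell and 3 rose in WT. For complexes II and III it was 6 and 1 of 10 in C48S and 4 and 2 in WT, for complex IV 12 and 0 of 21 in C48S and 13 and 1 in WT, and for complex V 2 and 1 of 4 in C48S and 1 and 2 in WT. Lrpprc, which stabilizes mitochondrial messenger RNAs, fell by 0.70 ± 0.05 in C48S and 1.05 ± 0.05 in WT. Tmem126b, an assembly factor of the complex I membrane arm, fell by 0.26 ± 0.11 in C48S and rose by 0.76 ± 0.11 in WT. Of 13 genes for mitochondrial DNA maintenance and transcription, 8 fell and 2 rose in each line, the risers being Polg and Tfb1m.

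Citric acid cycle enzymes were more mixed, with 8 of 13 lower and 3 higher in C48S and 6 lower and 2 higher in WT. Cs, citrate synthase, fell by 0.88 ± 0.04 and 0.62 ± 0.04, and Idh3a by 0.86 ± 0.06 and 1.33 ± 0.06. Idh3b, another subunit of the same dehydrogenase, rose by 0.29 ± 0.05 in C48S and 0.19 ± 0.05 in WT. The mitochondrial ribosomal proteins, a nuclear-encoded set of like size, counted 72 of 78 lower and 1 higher in C48S (median -0.60) and 65 lower and 2 higher in WT (-0.73).

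Of the 13 mitochondrially encoded subunits 6 fell in C48S and 8 in WT, and none rose. Several of them, such as mt-Co2, mt-Atp6 and mt-Atp8, were listed near 10 CPM or lower beside 5242 to 8492 CPM for mt-Co1, and mitochondrial sequences have nuclear copies that can take or remove reads, so their values are uncertain. Of 3 related genes whose symbols fall outside the pattern, Ndufab1 fell by 0.26 ± 0.08 in C48S and 0.29 ± 0.08 in WT and Usmg5 by 0.68 ± 0.08 and 0.36 ± 0.08. Atpif1, the inhibitor of the ATP synthase, was called in neither line (0.06 ± 0.06 and -0.04 ± 0.06). The same uncertainty touches members with processed copies, Uqcrh, Atp5l, Atp5k, Atp5c1 and Ndufs6 among them.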

How the data were processed

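RNA sequencing counts of 12 mouse embryonic stem cell libraries were used. The values deposited by the authors were raw counts per gene, per the file headers made with featureCounts 1.6.3 at strand option 2 on Ensembl release 104 gene models of GRCm39. Per the submitters' processing notes the tools also included STAR 2.7.9a and DESeq2, with build mm39. Symbols and biotypes came from GENCODE by gene identifier (52083 of 55416 genes, 94%), and promoter windows from RefSeq on GRCm38.p6. Coordinates of genes and exon lengths came from the files.

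Groups were taken from the titles. Genes passed filterByExpr (minimum count 10), were scaled by TMM and fitted in edgeR 4.0.16 (R 4.3.3) with a robust quasi-likelihood model over all 12 libraries, 8 residual degrees of freedom and a mean per group. A call is a Benjamini-Hochberg adjusted p under 0.05, and calls past a fold of 1.5 came from glmTreat. A prior count of 2 entered the log2 CPM by which libraries were compared, and not the fold changes. The fit was checked on simulated data. Library totals of 8678088 to 13597098 counts measure most members closely and leave those under about 1 CPM uncertain. The members and lists were chosen with earlier results of these data known.

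Values in every library were given by rule: per contrast the 4 largest rises and falls among called members, isoform pairs, complex II and members called against most of their complex. A few other members were added after their values were seen. From other lists, up to 4 called genes with the smallest adjusted p were named, with some chosen after their values were seen. Alternatives were RLE and total-count scaling, TMM without chromosomes 6, 8, 11 and Y, other count filters, protein-coding genes alone, compared groups alone, DESeq2 1.42.0, a replicate block and each library left out. The difference of 1 member between the lines is not reported here.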

Additional observations from a re-analysis of the deposited data

Results flagged for a closer look

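The RA change of 19 members differed between the lines by the edgeR test of the difference itself (change in C48S minus change in WT, adjusted p under 0.05, n = 3 libraries a group). Positive differences were 2.21 for Cox7a1, 0.59 for Atp5g1, 0.41 for Ndufa6, 0.36 for Cox5a, 0.26 for Atp5b, 0.22 for Atp5j, 0.22 for Cyc1 and 0.21 for Ndufv2. Negative differences included -0.90 for Atp5s, -0.71 for Cox5b, -0.56 for Ndufb11, -0.53 for Cox7a2l, -0.51 for Ndufb9, -0.38 for Ndufa13, -0.35 for Sdhc, -0.35 for Cox8a, -0.27 for Cox7c and -0.25 for Ndufa10. Cox7a1 and Atp5g1 stand among the members that differed most between the lines before RA, and Cox5b and Cox7a2l moved in opposite directions in the lines. Sdhc did so on the TMM scale, but was at 0.04 in C48S on total-count scaling, and its rise in WT lost the call in 2 of 12 fits that each left out 1 library. The call of Ndufv2 was lost in 9 of 12 such fits, and positive differences numbered 5 in place of 8 under several alternatives. The value for Ndufb9 rested in part on C48S undifferentiated replicate 3, without which it was -0.33.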

How the results depend on the processing

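Single values were recomputed only for the members given in every library by rule, 122 values in all, so the counts here leave out the other members. Of 2533 recomputed values, 2408 kept their side of the threshold and, where called, their direction. Another 104 lost and 15 gained the call, and 6 changed sign where the value was called on at least 1 of the scales. All 6 came from total-count scaling, which was chosen after seeing the data: with RA, 0.02 for Ndufa4, 0.03 for Sdha and 0.04 for Sdhc in C48S, and 0.07 for Cox7b, 0.26 for Ndufa4 and 0.12 for Sdha in WT. That scaling also gave 10 members lower in C48S before RA, and off chromosomes 6, 8 and 11 18 higher and 7 lower. With RA it gave 8 higher, 2 lower past a fold of 1.5 and a median of -0.25 in C48S, and 18 higher, 28 lower, 7 higher and 3 lower past that fold and a median of -0.02 in WT. For the difference of RA changes it gave 5 positive, 23 negative, 1 negative past the fold and a median of -0.18. Fitting the compared groups alone gave 6 members higher before RA and 28 lower after RA off those chromosomes. A minimum count of 50 gave 12 lower past the fold and a median of -0.26 in WT. It gave 5 positive differences, as did RLE scaling, no filter and DESeq2. The causes were not tested.

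Leaving out 1 library in turn gave 12 to 26 members lower in C48S before RA, with 1 to 2 higher past the fold, and off chromosomes 6, 8 and 11 7 to 14 higher and 9 to 22 lower. After RA 1 to 2 were higher past the fold. The C48S median with RA ran from -0.57 to -0.41, positive differences from 5 to 13 and the median difference from -0.13 to 0.00. Calls near the threshold, such as those of Cox6a1, Atp5e, Atp5s and Cox4i1 between the lines, are the least secure.

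Libraries with the same replicate number did not deviate together, with correlations from -0.053 to 0.029, so the numbers pair nothing. With the replicate block the counts were 15 higher and 20 lower after RA, 18 and 16 before RA, 5 and 65 with RA in C48S, 9 and 53 in WT, and 8 and 12 for the difference.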
